A study of Mus musculus with 4 samples.

Results

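The 10 genes described here are markers of the stem cells at the base of the intestinal crypt: Lgr5, Ascl2, Smoc2, Olfm4, Lrig1, Hopx, Bmi1, Tnfrsf19, Prox1 and Tcf7. They were taken by gene symbol from a table of 16857 genes, and all 10 had a row in it. RNA of 4 mouse adenoma colonoid lines, which are epithelial structures grown in culture, was measured by bulk RNA sequencing with 1 library per line. The 2 G2 lines, numbers 157 and 236, had the genotype Apcnull/LSL-mTERT-homo, and the 2 G0 lines, numbers 75 and 179, had Apcnull/LSL-mTERT-het. G2 and G0 stand for generation 2 and generation 0, so that generation and genotype cannot be told apart. All 4 lines were named Apcmin, so loss of Apc, the negative regulator of Wnt signalling, was common to both groups. The series sets colonoids with low chromosomal instability against colonoids with high chromosomal instability, and the labels do not say which of these is G2. The promoter or recombinase behind the LSL-mTERT allele is not given in the sources used here, nor is it said whether each line came from its own mouse. The p-values therefore measure the spread between these lines.

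The libraries held 16545429 and 17156331 counts in G2 and 17152994 and 17901744 counts in G0. Tert, the gene of the altered allele, had 0 and 1 counts in G2 and 95 and 96 counts in G0. The Y-linked genes Ddx3y, Eif2s3y, Kdm5d and Uty had 303 to 534 counts in each G2 library and 0 in both G0 libraries, so that the sex of the lines and the group cannot be told apart for any gene below. The epithelial genes Epcam, Krt8, Krt18, Krt19 and Cdh1 were abundant in all 4 libraries, while the intestinal transcription factor Cdx2 had 270.3 and 186.7 normalized counts in G2 and 2395 and 3199 in G0. Vil1 had 1731 and 786.9 normalized counts in G2 and 4734 and 6383 in G0, and Cdx1 had 2 to 8 counts in each library. Of these 8 epithelial genes 3 passed limma's test at an adjusted p under 0.05 (37.5%, beside 10.5% of all genes). Cdx2 and Vil1 were lower in G2, and Cdh1 was higher (1.80-fold). A normalized count is a count divided by the library's size factor.

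Stem cells at the crypt base renew the intestinal epithelium and depend on Wnt signals. R-spondins bind LGR receptors and keep the Wnt receptors at the cell surface, and beta-catenin then acts with TCF/LEF factors to switch on stem cell genes such as Lgr5 and Ascl2. A further set of markers, among them Lrig1, Hopx and Bmi1, was described in slowly cycling or injury-responsive crypt cells, although their expression overlaps with that of the Lgr5-positive cells. Loss of Apc activates this pathway without a Wnt ligand, and most of these markers are known from intestinal adenomas.

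The markers did not move as one group. Prox1 and Hopx rose in G2, Lrig1, Tnfrsf19 and Tcf7 fell, and Lgr5, Ascl2, Smoc2 and Bmi1 did not pass the test. Olfm4 had a count of 0 in all 4 libraries and was not tested. Thus 5 of the 9 tested markers passed limma's test at an adjusted p under 0.05, 2 with a rise and 3 with a fall, while 10.5% of the 13981 genes tested passed (5.93% higher and 4.56% lower). An unadjusted p under 0.05 was found for 6 of the 9 markers, beside 26.8% of all genes tested. The values of the 2 groups did not overlap for 7 of the 9 markers, beside 57.8% of all genes tested, so this count is close to the background. The median log2 fold change was -0.05 over the 9 markers and 0.01 over all genes tested. Fits that left out 1 library cannot decide a call, because the lone library of a group has no spread of its own. In them the log2 fold changes were 2.74 to 3.13 for Prox1, 1.38 to 1.87 for Hopx and -1.30 to -0.83 for Lrig1. They were -1.09 to -0.63 for Tnfrsf19 and -0.63 to -0.62 for Tcf7. Without an intensity trend in limma only Prox1 passed, and without a filter on low values only Tcf7 passed. In bulk RNA, fewer cells of a type and less RNA per cell cannot be told apart.

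**Figure D1:**
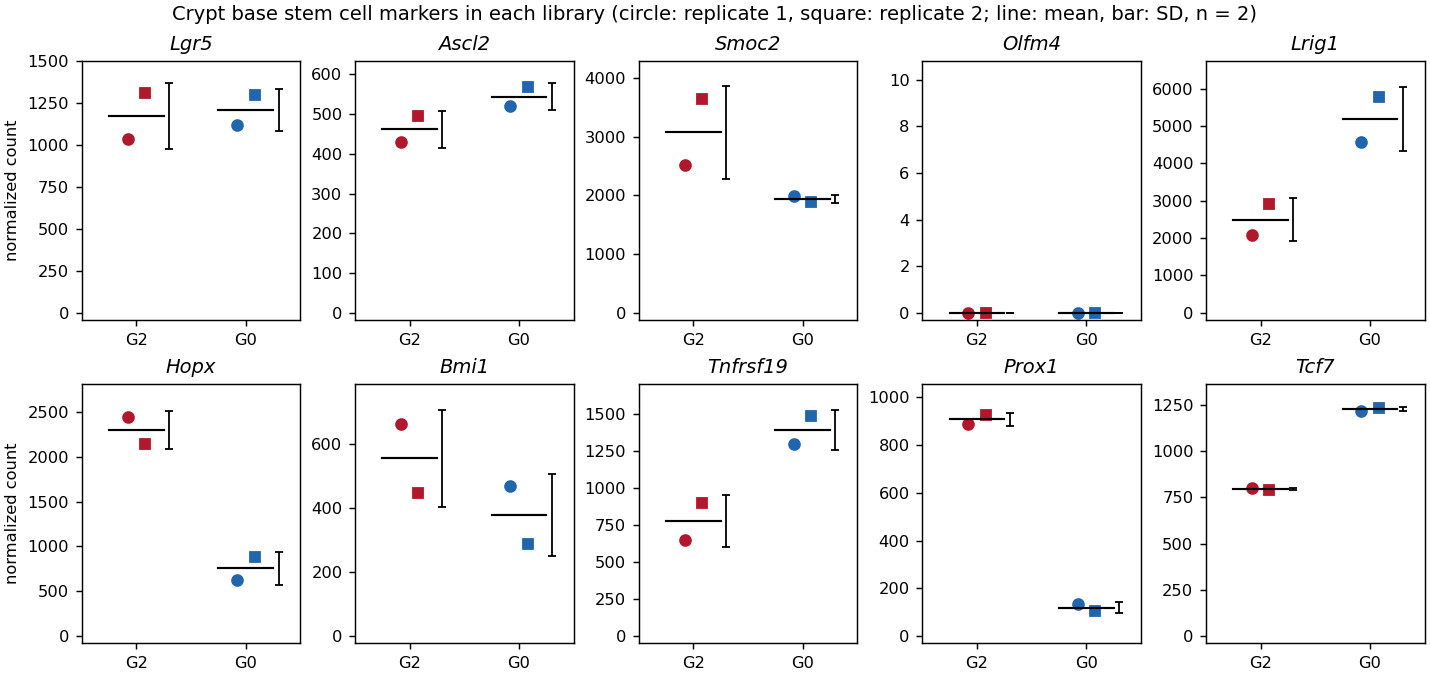
Normalized counts of the 10 markers (vertical axes, each from 0) in the G2 lines (red, left) and the G0 lines (blue, right), with the mean as a line and the SD as a bar (n = 2 each). Prox1 and Hopx lie higher in both G2 lines and Lrig1, Tnfrsf19 and Tcf7 lower in both, the values of Lgr5 and Bmi1 overlap between the groups, and Olfm4 lies at 0 throughout.

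Lgr5, Ascl2, Smoc2 and Olfm4 are the markers most closely tied to the crypt base columnar cell. Lgr5, the R-spondin receptor that defines these cells (chromosome 10, 115450314 to 115587780, GRCm38.p6), had 1034 and 1312 normalized counts in G2 and 1120 and 1295 in G0. The range of the G2 lines enclosed both G0 lines. The log2 fold change of Lgr5 was -0.05 with a 95% interval of -0.45 to 0.35 (adjusted p = 0.876), and its sign turned under another scaling and when a library was left out.

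Ascl2, a basic helix-loop-helix transcription factor that maintains the stem cell programme (chromosome 7, 142966822 to 142969264), had 428.6 and 493.6 normalized counts in G2 against 519.4 and 567.8 in G0. Both G2 lines lay below both G0 lines, but the gap was small beside the spread of the lines. The log2 fold change was -0.24 with a 95% interval of -0.63 to 0.15, and the test was not passed (adjusted p = 0.392).

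Smoc2, a secreted matricellular protein of the crypt base (chromosome 17, 14279490 to 14404790), had 2510 and 3637 normalized counts in G2 against 1992 and 1895 in G0. Both G2 lines were higher than both G0 lines, and they differed from each other 1.45-fold. The mean was 3074 ± 797 in G2 and 1944 ± 68 in G0 (SD, n = 2 each), and Smoc2 narrowly missed the threshold (log2 fold change 0.64, SE 0.19, unadjusted p = 0.0123, adjusted p = 0.0817).

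Olfm4, a secreted glycoprotein that marks stem cells of the mouse small intestine and of the human colon (chromosome 14, 80000302 to 80023141), had a count of 0 in every library. A count of 0 allows up to 3 counts per library, which is 2.93 to 3.05 normalized counts, and covers counting error only. Of the marker's olfactomedin relatives, Olfm1, Olfm2, Olfml2a, Olfml2b and Olfml3 had at most 15.6 normalized counts in a library, and Olfm3 had 0.

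Prox1, Tcf7 and Tnfrsf19 encode a transcription factor, a nuclear partner of beta-catenin and a receptor, and all 3 are known as Wnt targets in intestinal tumours. Prox1, a homeobox factor switched on in colonic adenomas with active Wnt signalling (chromosome 1, 190118035 to 190170827), had 889.5 and 927.6 normalized counts in G2 against 135.5 and 102.6 in G0. The G2 lines were close to each other and far above both G0 lines. Prox1 rose 7.63-fold (log2 fold change 2.93, SE 0.20, adjusted p = 0.000508), and it had the 50th smallest p of all genes tested. The ratio of the means was 6.71 to 8.86 when any 1 library was left out.

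Prox1 is also expressed in enteroendocrine cells, some tuft cells and lymphatic endothelium, so markers of these cells are given beside it. Of the 8 enteroendocrine genes with a row, 3 were at 0 in all libraries (Chgb, Neurod1 and Gcg), and their sum was 3.03 and 8.80 normalized counts in G2 and 7.86 and 7.11 in G0. Tuft cell genes with a row numbered 6 and summed to 300.5 and 435.9 normalized counts in G2 and 423.2 and 468.3 in G0. Their defining factor Pou2f3 was at 0 in all libraries, Avil rose and Alox5 fell. The 7 endothelial genes with a row summed to 158.3 and 236.5 normalized counts in G2 and 71.7 and 78.2 in G0, and Tek and Vwf rose. All 5 tested endothelial genes had a log2 fold change above 0. Of the lymphatic markers, Flt4 was higher in G2 but did not pass, and Lyve1 had 1 to 3 counts in every library. Pecam1 had 0 to 2 counts. The part of these cells in the Prox1 result was not tested.

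Tcf7, the TCF/LEF factor TCF1 and itself a Wnt target (chromosome 11, 52246527 to 52283383), had 799.7 and 791.7 normalized counts in G2 against 1219.5 and 1236.2 in G0. The 2 lines of each group nearly coincided, and the G2 lines lay below the G0 lines. Tcf7 fell in G2 by 0.63 on the log2 scale (SE 0.13, adjusted p = 0.0300), a level 1.54-fold lower. The call was lost when libraries were scaled to the same total (adjusted p = 0.0529).

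Tnfrsf19, also called Troy, is a receptor of the TNF receptor superfamily expressed in Lgr5-positive cells (chromosome 14, 60963834 to 61046855). Its normalized counts were 650.5 and 900.2 in G2 against 1298 and 1488 in G0. Both G2 lines were below both G0 lines. Tnfrsf19 fell by 0.86 on the log2 scale (SE 0.19, adjusted p = 0.0338), a level 1.80-fold lower in G2. Its relatives Eda2r and Relt did not pass, at 829 ± 89 and 46.1 ± 2.5 normalized counts in G2 and 682 ± 244 and 63.0 ± 7.2 in G0 (SD, n = 2 each).

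Lrig1, Hopx and Bmi1 belong to the markers described in slowly cycling or reserve crypt cells, and they parted in direction. Lrig1, a transmembrane protein that restrains ERBB receptors (chromosome 6, 94604529 to 94700298), had 2083 and 2900.1 normalized counts in G2 against 4570 and 5779 in G0. Both G2 lines were lower than both G0 lines. Lrig1 fell by 1.06 on the log2 scale (SE 0.20, adjusted p = 0.0202), a level 2.08-fold lower in G2.

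Hopx, a small homeodomain protein without DNA-binding activity (chromosome 5, 77086986 to 77115123), had 2444 and 2147 normalized counts in G2 against 625.5 and 881.7 in G0. The G2 lines lay well above the G0 lines. Hopx rose 3.05-fold (log2 fold change 1.62, SE 0.19, adjusted p = 0.00387), and the ratio was 2.60 to 3.67 when any 1 library was left out. In GENCODE M21 the antisense gene Hopxos shares 412 of the 1516 exon bases of Hopx (27.2%), and Hopxos had no row in the table. The strand setting of the counting is not given in the sources used here, so reads of the 2 genes cannot be told apart. The exon overlaps of Lrig1 with Slc25a26 and of Prox1 with Prox1os on the opposite strand were 2.58% and 1.59% of their exon bases.

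Bmi1, a subunit of Polycomb repressive complex 1 (chromosome 2, 18677018 to 18686629), had 661.6 and 447.7 normalized counts in G2 against 468.4 and 288.5 in G0. The lines of each group differed from each other more than those of any other marker, 1.48-fold in G2 and 1.62-fold in G0, and the groups overlapped. The log2 fold change was 0.56 with a 95% interval of -0.11 to 1.24 (adjusted p = 0.255). Commd3, the gene just before Bmi1 on the same strand, had 1655 and 1613 normalized counts in G2 and 1767 and 1701 in G0 (adjusted p = 0.701).

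**Figure D2:**
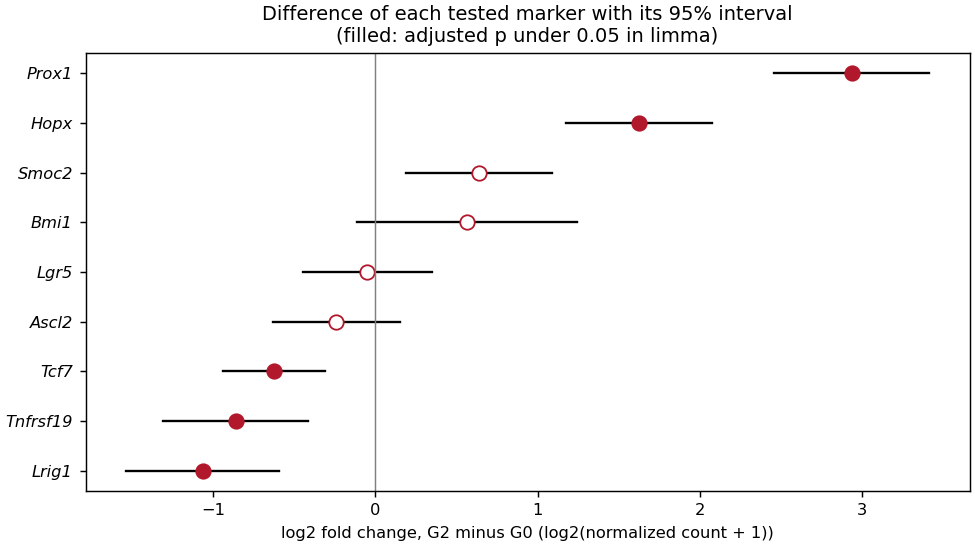
Log2 fold change of the 9 tested markers (horizontal axis, G2 minus G0, on log2 of the normalized count plus 1) with 95% intervals as lines, where filled points passed limma's test. The points run from -1.06 for Lrig1 to 2.93 for Prox1, and the intervals of Lgr5, Ascl2 and Bmi1 include 0.

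The start regions of 4 called markers, 2 that rose and 2 that fell, are shown with their motif matches and CpG content. Each holds 250 bases before and 50 bases after a start site in RefSeq (GRCm38.p6), 5′ to 3′ on the gene's strand, and 8 of the 10 markers had such a window, Lgr5 and Smoc2 being the others. Capitals mark the TCF/LEF motif (CTTTG followed by 2 letters that are each A or T) and the E-box CAGCTG, a motif bound by basic helix-loop-helix factors such as ASCL2, searched on both strands. No letters of the motifs overlapped each other in these windows.
Prox1, chr1:190170778-190171077, minus strand: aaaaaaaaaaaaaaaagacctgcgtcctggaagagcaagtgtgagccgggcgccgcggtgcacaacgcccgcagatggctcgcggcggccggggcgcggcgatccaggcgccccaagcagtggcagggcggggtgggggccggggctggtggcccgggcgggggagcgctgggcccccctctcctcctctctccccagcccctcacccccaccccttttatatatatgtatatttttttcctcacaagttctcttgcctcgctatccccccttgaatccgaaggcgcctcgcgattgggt
Hopx, chr5:77115074-77115373, minus strand: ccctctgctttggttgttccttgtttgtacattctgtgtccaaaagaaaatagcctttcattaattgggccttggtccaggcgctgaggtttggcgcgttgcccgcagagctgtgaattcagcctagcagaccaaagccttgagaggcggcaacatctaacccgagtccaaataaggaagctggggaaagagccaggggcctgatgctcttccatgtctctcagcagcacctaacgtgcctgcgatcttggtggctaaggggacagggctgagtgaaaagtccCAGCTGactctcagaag
Lrig1, chr6:94700096-94700395, minus strand: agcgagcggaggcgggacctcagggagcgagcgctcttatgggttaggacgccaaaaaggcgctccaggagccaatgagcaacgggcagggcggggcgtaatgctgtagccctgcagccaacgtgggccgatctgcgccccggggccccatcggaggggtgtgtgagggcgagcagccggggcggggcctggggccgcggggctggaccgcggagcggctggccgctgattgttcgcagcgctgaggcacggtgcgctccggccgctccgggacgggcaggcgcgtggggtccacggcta
Tnfrsf19, chr14:61037938-61038237, minus strand, the second of its start sites in the table: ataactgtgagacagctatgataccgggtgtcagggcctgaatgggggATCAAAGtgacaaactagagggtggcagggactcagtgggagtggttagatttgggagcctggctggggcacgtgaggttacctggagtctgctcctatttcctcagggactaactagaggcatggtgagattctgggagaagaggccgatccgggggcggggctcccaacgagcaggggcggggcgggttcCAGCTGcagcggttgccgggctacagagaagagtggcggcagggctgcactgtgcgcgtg

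The windows differed in CpG content, with 25 CpG in the Prox1 window, 8 in that of Hopx, 35 in that of Lrig1 and 13 in that of Tnfrsf19, beside a median of 20 over the windows of all genes tested. The second window of Prox1 held 14, the second of Hopx 21 and the first of Tnfrsf19 14, and the windows of Tcf7, the fifth called marker, held 45 and 17. The count thus depended on the start site, and no order of risen against fallen markers is read from it. The Hopx window holds CAGCTG at position 34 after the start. The Tnfrsf19 window holds CAGCTG at position -10 and a TCF/LEF match, read as ATCAAAG on this strand, at position -202. Neither motif was found in the first Tnfrsf19 window or the second Hopx window, so these matches also depended on the start site. Over the 12 windows of the 8 markers, 1 held a TCF/LEF match and 3 held CAGCTG, while 11.7% and 15.4% of the 13904 windows of tested genes did, and 16.9% and 16.3% of all 32851 windows. These are matches of letters only, and the 300 bases leave distal sites unread.

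Levels were compared between genes after division by exon length. In G2 the order by mean level ran from Hopx at 1514 normalized counts per kilobase through Lrig1 (446.1), Smoc2 (442.2), Tcf7 (303.1), Ascl2 (284.1), Tnfrsf19 (163.6), Bmi1 (139.6) and Lgr5 (114.3) to Prox1 (108.3). In G0 it ran from Lrig1 at 926.5 normalized counts per kilobase through Hopx (497.1), Tcf7 (467.8), Ascl2 (335.0), Tnfrsf19 (294.0), Smoc2 (279.7), Lgr5 (117.7) and Bmi1 (95.2) to Prox1 (14.2). Hopx stood first in both G2 lines and Lrig1 first in both G0 lines. In G2 the ranges of the neighbours Lrig1 and Smoc2, Tcf7 and Ascl2, Tnfrsf19 and Bmi1, Bmi1 and Lgr5, and Lgr5 and Prox1 overlapped, so their order did not differ beyond the spread of the lines. The same held in G0 for Hopx and Tcf7, Tnfrsf19 and Smoc2, and Lgr5 and Bmi1. Among genes with a count, Prox1 lay at the 56.0 and 56.9 percentile of the level per kilobase in G2 and at the 26.9 and 24.7 percentile in G0. Lgr5 stayed in the middle, at the 54.8 and 60.3 percentile in G2 and the 57.0 and 60.8 percentile in G0. The exon lengths are unions over all annotated transcripts, so a gene with long unused exons is set too low.

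**Figure D3:**
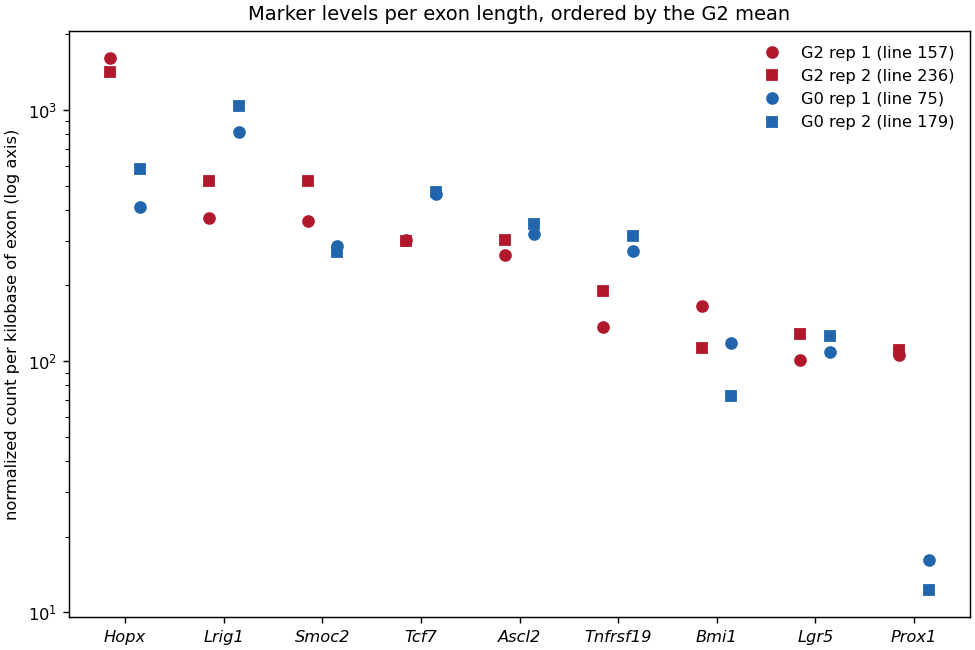
Levels of the 9 detected markers as normalized counts per kilobase of exon (vertical log axis), in the G2 lines (red, left of each pair) and G0 lines (blue, right), ordered by the G2 mean. Hopx is first in G2 at 1612 and 1417, and Lrig1 is first in G0 at 818.2 and 1035. Prox1 has the lowest mean in both groups, although Lgr5 lies below it in G2 replicate 1 (100.7 against 106.0).

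Paralogues of the markers were set beside them on the same scale per kilobase. Tcf7 made up 79.0% and 78.5% of the summed level of the 4 TCF/LEF genes in G2 and 88.8% and 89.4% in G0. The share of Tcf7l2, the family member best known for the crypt programme, was 14.1% and 14.2% in G2 and 7.61% and 5.98% in G0. Its own normalized counts were 477.0 and 478.0 in G2 and 349.6 and 276.3 in G0, which did not pass (adjusted p = 0.0843), and Lef1 and Tcf7l1 did not pass either (adjusted p = 0.254 and 0.984). Tcf7 was the largest of the 4 in every library.

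Among the R-spondin receptors, Lgr5 held 34.9% and 42.6% of the summed level in G2 and 37.4% and 52.4% in G0. Lgr4 held most of the rest, with 1098 and 1003 normalized counts in G2 and 1063 and 660.3 in G0 (adjusted p = 0.405), and Lgr6 had at most 15.2 normalized counts in a library. Lrig1 was 95.1% and 95.8% of the LRIG family in G2 and 97.5% and 98.2% in G0, and Lrig2 and Lrig3 did not pass (adjusted p = 0.662 and 0.824). Lrig1 was thus by far the largest LRIG gene in both groups.

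Smoc1, the close relative of Smoc2, had 199.7 and 265.9 normalized counts in G2 and 0 counts in both G0 libraries, at least 77.7-fold higher against a floor of 3 counts per library (adjusted p = 0.000315). Smoc1 thereby made up 13.7% and 12.7% of the 2 SMOC genes per kilobase in G2 and 0 in G0. Spock2, a proteoglycan of the same wider family, rose 14.2-fold, with 583.9 and 1588 normalized counts in G2 and 56.0 and 97.5 in G0 (adjusted p = 0.00547). Of the 23 tested family relatives of the markers, Smoc1 and Spock2 were the 2 that passed, both upward (8.70%, beside 10.5% of all genes). Prox2 did not pass, at 34.2 ± 5.6 normalized counts in G2 and 48.0 ± 9.6 in G0 (SD, n = 2 each). Cux1 and Pcgf2, relatives of homeobox and Polycomb type, did not pass (adjusted p = 0.196 and 0.962). Ascl3, Ascl4 and Ngfr had at most 13.7 normalized counts in a library.

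Other genes of the crypt base columnar cell were more often higher than lower in G2. Of 24 tested, 6 rose and 1 fell (29.2%, beside 10.5% of all genes), with a median log2 fold change of 0.40 beside 0.01 over all genes tested. Cdca7, a nuclear protein linked to MYC and E2F, fell 2.01-fold, with 1075 and 1337 normalized counts in G2 and 2306 and 2554 in G0 (adjusted p = 0.00969). Soat1, which esterifies cholesterol, rose 1.91-fold (adjusted p = 0.0153), and Axin2, a negative feedback gene of Wnt signalling, rose 1.76-fold (adjusted p = 0.0171). Scn2b, a sodium channel subunit, rose 5.99-fold from a low level, with 66.6 and 65.5 normalized counts in G2 and 8.84 and 13.2 in G0 (adjusted p = 0.0103). Cdk6, the ion cotransporter gene Slc12a2 and the urea transporter gene Slc14a1 also rose (adjusted p = 0.0264, 0.0397 and 0.0276), and Slc14a1 was uneven, with 73.6 and 8.80 normalized counts in G2 and 0 in both G0 lines. The transcription factor Sox9 and the ubiquitin ligases Rnf43 and Znrf3, which remove Wnt receptors, did not pass (adjusted p = 0.130, 0.117 and 0.221), nor did the receptors Ephb2 and Ephb3 (adjusted p = 0.120 and 0.206).

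Of 8 tested genes of the R-spondin and Wnt receptor module, Fzd7 rose and 0 fell (12.5%, beside 10.5% of all genes), with a median log2 fold change of 0.35. Fzd7, a Wnt receptor needed by Lgr5-positive cells, had 639.4 and 468.2 normalized counts in G2 and 222.9 and 249.9 in G0 (2.34-fold, adjusted p = 0.0152). The receptor genes Fzd5 and Lrp5 did not pass, at 645 ± 148 and 4701 ± 171 normalized counts in G2 and 373 ± 28 and 6269 ± 1309 in G0 (SD, n = 2 each; adjusted p = 0.0570 and 0.193). The ligand genes Rspo1 and Rspo4 were at 0 in all libraries, and Rspo2 and Rspo3 had no row. Among 12 TCF/LEF factors and beta-catenin cofactors, 1 passed: the Groucho-type corepressor gene Tle4 rose 2.01-fold, with 2062 and 1881 normalized counts in G2 and 1128 and 835 in G0 (adjusted p = 0.0147). The median of that list was 0.47, or 0.35 with Pygo1, at 0 in G0, placed at its bound. Ctnnb1, which encodes beta-catenin, had 15590 ± 239 normalized counts in G2 and 11210 ± 851 in G0 (adjusted p = 0.0908).

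Bmi1 stood among 17 other tested genes of Polycomb repressive complex 1, of which 0 passed limma's test, beside 10.5% of all genes (median log2 fold change 0.15). An unadjusted p under 0.05 was found for 3 of the 17, which is below the 26.8% of all genes tested. These were Cbx6, Rnf2 and Phc3, each higher in G2 (adjusted p = 0.0868, 0.127 and 0.141). The LRIG relatives and receptors of the ERBB and MET type likewise had 0 of 6 that passed, beside the same 10.5% of all genes (median log2 fold change 0.19). An unadjusted p under 0.05 was found for 2 of the 6, Erbb2 and Erbb3, beside 26.8% of all genes tested. Both were higher in G2 (adjusted p = 0.158 and 0.162 in limma). Egfr had 897.6 and 520.0 normalized counts in G2 and 1153 and 864.4 in G0 (adjusted p = 0.251). Met had 1632 and 1365 normalized counts in G2 and 1578 and 1092 in G0 (adjusted p = 0.595).

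Cell cycle genes and genes of the injury-responsive or fetal-like epithelium were set beside the markers. Of 10 cycling cell genes, 6 fell and 0 rose (60%, beside 10.5% of all genes in either direction and 4.56% downward), among them the helicase subunit genes Mcm3, Mcm5 and Mcm6 and the mitotic genes Ccnb1, Ccnb2 and Cdk1, with a median log2 fold change of -0.57. The falls of these 6 genes were 1.45-fold to 1.76-fold, as against 1.54-fold to 2.08-fold for Tcf7, Tnfrsf19 and Lrig1. Mki67 overlapped between the groups, with 8400 and 5654 normalized counts in G2 and 7676 and 7624 in G0 (adjusted p = 0.669). Without a filter on low values, or without an intensity trend, 0 of the 10 cycling cell genes passed, and 4 passed when libraries were scaled to the same total. Of 10 injury-responsive genes, 2 rose and 0 fell (20%, beside 10.5% of all genes in either direction and 5.93% upward), with a median log2 fold change of 0.15. Gja1, connexin 43, rose 2.88-fold, with 1136 and 955.0 normalized counts in G2 and 472.3 and 254.0 in G0 (adjusted p = 0.0181). Clu and Ly6a, best known from the repairing crypt, were abundant in both groups and did not pass (adjusted p = 0.127 and 0.142). Clu had 32380 and 44113 normalized counts in G2 and 62027 and 55582 in G0, and Ly6a had 58974 and 60335 in G2 and 40613 to 43103 in G0.

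**Figure D4:**
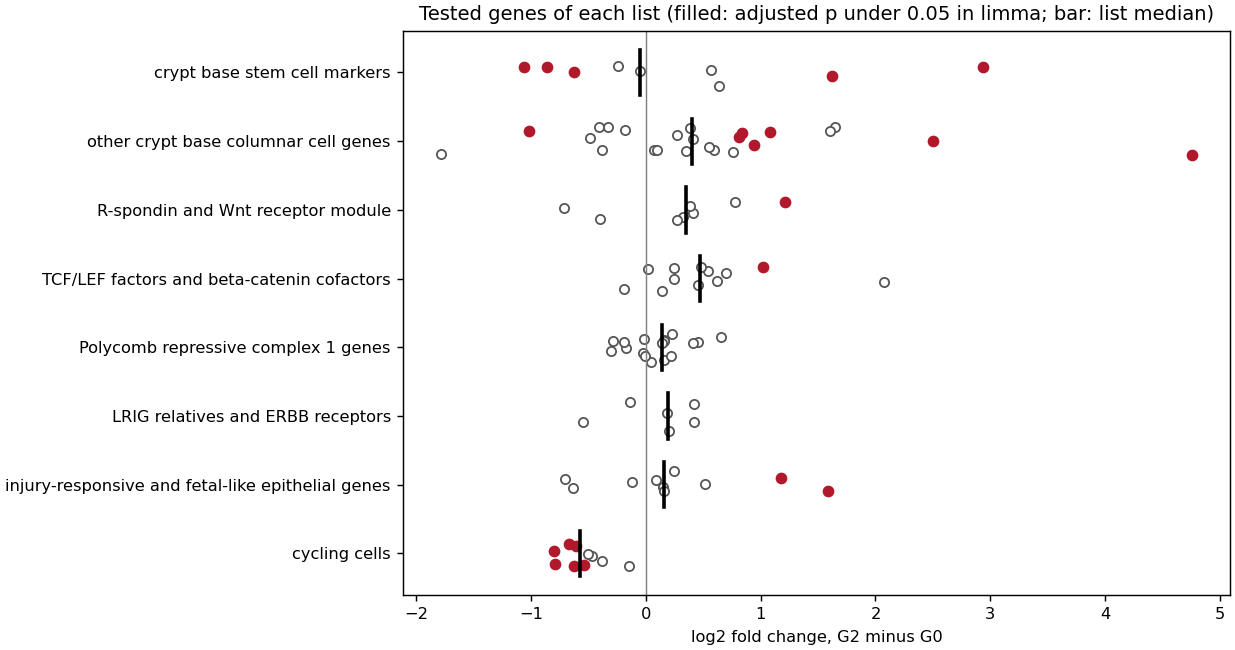
Log2 fold change (horizontal axis, G2 minus G0) of each tested gene of the markers and of 7 further lists, where filled points passed limma's test and the bar is the list's median. The markers spread from -1.06 to 2.93 around a median of -0.05, 17 of the 24 other crypt base genes lie above 0 and the 10 cycling cell genes all lie below 0.

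Levels of differentiated cell markers varied by list. The 6 deep crypt secretory and Paneth cell genes with a row summed to 2739 and 5562 normalized counts in G2 and 2989 and 3903 in G0. Nearly all of this was Mmp7, a matrix protease of Paneth cells, with 2719 and 5480 normalized counts in G2 and 2948 and 3847 in G0 (adjusted p = 0.726), while Defa24 and Ang4 were at 0. The 8 goblet cell genes summed to 353.0 and 210.2 normalized counts in G2 and 180.7 and 266.1 in G0, with Clca1 higher (adjusted p = 0.00911) and Fcgbp lower (adjusted p = 0.0338) in G2. Absorptive colonocyte genes, 10 in number, summed to 4391 and 516.1 normalized counts in G2 and 228.8 and 395.1 in G0. Car1 made up 4019 and 508.3 of the G2 values, uneven between the lines, and had 38.3 and 106.7 in G0. It was the 1 of 7 tested that passed limma's test (adjusted p = 0.0264), which is 14.3%, beside 10.5% of all genes. Fibroblast genes summed to 10.1 and 10.8 normalized counts in G2 and 4.91 and 6.09 in G0, with Dcn and Pdgfra at 0. Only 2 of them were tested, and 1, Col3a1, passed limma's test with a rise in G2 (50%, beside 10.5% of all genes). Ptprc, the leucocyte marker, was at 0 in every library, and the summed haematopoietic list, 1177 and 1923 normalized counts in G2 and 1131 and 2113 in G0, consisted mostly of Cd68. Csf1r, a macrophage receptor, rose, with 16.1 and 4.89 normalized counts in G2 and 0 in both G0 lines. The part of differentiated or other cells in the marker results was not tested.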

How the data were processed

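Per the submitters' processing notes the reads were handled on the build mm10 with tools that include DESeq2 1.32.0, HISAT2 2.1.0, StringTie 2.1.1, bcl2fastq 2.20.0 and R 3.5.2. Which annotation, strand setting and read filters were used is not given in the sources used here. Log2 values were deposited by the authors, and their lowest value, 6.508, is the same in all 4 libraries, as a variance-stabilizing transformation gives to a count of 0. Inverting it with that floor and 1 scale factor per library returned whole numbers for 100% of the values (tolerance 0.001). StringTie estimates coverage, so these counts can be rounded estimates, and no count model was run. A planned test for normalized values was used: limma 3.58.1 in R 4.3.3 with an intensity trend on log2(normalized count + 1), which understates the change of low genes. Genes with a mean of at least 1 were tested, two-sided, with Benjamini-Hochberg adjustment over all 13981 genes at 0.05. The fit was tested on simulated data. Fold changes in words are ratios of mean normalized counts. Named were all 10 markers, family relatives, Tert and up to 4 genes per list with the smallest p, while Y-linked and other genes were picked once values were known, and some genes that the rule takes are not reported here. The markers and lists were chosen with earlier results of these data known, and lists are counted, not tested. Exon lengths came from GENCODE M21 (97.8% of genes).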

Additional observations from a re-analysis of the deposited data

How the results depend on the processing

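All 3 counts fell to 0 in each fit that left out 1 library: of all genes, of the 9 markers and of the 139 tested genes of the other lists (lowest and highest 0). The lone library is then assumed to vary like the other group, and 2376 to 3221 genes had an unadjusted p under 0.05. Without a filter on low values 225 genes, 1 marker and 2 listed genes passed, against 1467, 5 and 31, and without the intensity trend 623, 1 and 9 did. For Prox1 and Hopx the adjusted p was 0.0545 and 0.118 without the filter, and 0.0175 and 0.0548 without the trend. The cause was not tested. With a replicate block 3503 genes, 7 markers and 60 listed genes passed, with Smoc2 (adjusted p = 0.00406) and Bmi1 (adjusted p = 0.0150) added to the markers. The labels share only replicate numbers, and with 2 pairs the correlation of same-numbered deviations, 0.109 across genes, does not show a pairing. Other pseudocounts, a higher filter, 2 other scalings and the deposited log2 values moved none of these 3 counts by over 1.5 times. Among single lists, the R-spondin and Wnt receptor module had 2 calls in place of 1 with the higher filter. Endothelial genes had 1 in place of 2 with a pseudocount of 0.5 or upper quartile scaling. The haematopoietic list had 0 in place of 1 with a pseudocount of 5 or the higher filter, and the fibroblast list likewise with that filter. Lgr5 turned sign when libraries were scaled to the same total (0.016) and without G0 replicate 2 or G2 replicate 1 (log2 fold changes of -0.22 to 0.12 over libraries left out). The other 8 markers kept their direction in all 13 alternatives.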
